A study of Mus musculus with 44 samples.

Results

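The ionotropic receptors for glutamate and the GABA-A receptors are ion channels built from subunits, and 28 of the 55416 genes counted in this study code for them. They were chosen by gene symbol, matched to the Ensembl identifier of each count, and not by any measured value. Of the 28, 16 belong to the glutamate receptors (4 AMPA, 5 kainate and 6 NMDA receptor subunits and the delta subunit Grid1) and 12 to the GABA-A receptors (5 alpha and 2 beta subunits, and Gabrg1, Gabrg3, Gabrd, Gabre and Gabrq). The list is not the whole set of mouse subunits, and subunits outside it were not analysed here.

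RNA had been taken from whole homogenates of brain, liver and small intestine of C57BL/6J mice about 2 months old. One group of 8 mice (3 female, 5 male) had received manganese as MnCl2.4H2O, near 50 mg per kg of body weight each day, and the other group of 7 mice (3 female, 4 male) had received vehicle. The study asked which changes of expression after manganese (Mn) might bear on motor function. Each replicate is a separate mouse, named here by its number in the labels, and its tissues carry the same number. Brain and liver gave 8 Mn and 7 vehicle libraries each, and small intestine 7 Mn and 7 vehicle libraries. Libraries were of the 3′ TagSeq type, in which reads come from near the 3′ end of a polyadenylated transcript, so a count depends little on transcript length and levels of different genes can be set side by side with that reservation. Brain libraries held 1883082 to 3798810 reads assigned to genes in Mn mice and 1907393 to 2787449 in vehicle mice. Levels below are CPM, read counts scaled to a fixed library total, on library sizes scaled by TMM, a method that sets aside the most extreme genes.

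As background, AMPA receptors carry most of the fast excitatory current at synapses, NMDA receptors admit calcium when glutamate release and depolarisation coincide, and kainate receptors act on both sides of the synapse. GABA-A receptors are chloride channels of 5 subunits that carry fast inhibition. Receptors with a gamma subunit tend to sit at synapses, and those with the delta subunit outside them. The subunit makeup differs between brain regions: Gabra6 is a subunit of cerebellar granule cells, and Gabra4 and Gabrd are abundant in thalamus as well as forebrain.

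The label "brain" was checked against markers. The 6 pan-neuronal markers, of which Tubb3 is listed at 0 in all 15 brain libraries, summed to 4200 to 4680 CPM in Mn and 4250 to 4430 CPM in vehicle libraries, a narrow range. Markers of cerebellar cells were at unlike levels. Of the granule cell list, Neurod1 was at 0 in all 15 libraries. Fat2 reached 5.97 CPM in Mn and 3.03 CPM in vehicle libraries, and En2 reached 12.4 and 3.67 CPM. Cbln1 lay at 28.5 to 98.2 CPM in Mn and 55.2 to 82.5 CPM in vehicle libraries. Zic2 lay at 25.6 to 36.2 CPM in Mn and 23.6 to 32.2 CPM in vehicle libraries. Gabra6 was at 0 in 10 of 15 libraries and reached 1.12 CPM at most, and Cbln3, a granule cell gene, reached 2.98 CPM in Mn and 1.14 CPM in vehicle libraries, while Zic1, a transcription factor of granule cells and of other regions, lay at 81.8 to 289 CPM in Mn and 219 to 248 CPM in vehicle libraries. Of the Purkinje cell markers, Pcp2 reached 6.34 CPM in Mn and 2.65 CPM in vehicle libraries, and Calb1 lay at 66.4 to 221 CPM in Mn and 160 to 233 CPM in vehicle libraries. Slc17a6, the vesicular glutamate transporter of thalamus and brainstem, had run means of 275 and 324 CPM in Mn and 280 and 284 CPM in vehicle mice, against 57.0 to 69.8 CPM in all 4 run and treatment sets for Slc17a7, its counterpart in cortex and cerebellum. The labels name no region of the brain.

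Several brain libraries stood apart. RNA of liver or small intestine was estimated to make up 2.36% to 6.02% of 7 Mn libraries, those of mice 2576, 2577, 2578, 2600, 2601, 2602 and 2603, and at most 0.31% of Mn library 2575 and of each vehicle library. The library of Mn mouse 2578 differed further in its brain markers, and vehicle 2572 carried 23900 CPM of hypothalamic and pituitary hormone genes, against 92.6 to 1550 CPM in Mn libraries. The animal numbers were grouped here into runs. One run joins Mn 2600 to 2603 and vehicle 2627 to 2630, and the other holds Mn 2575 to 2578 and vehicle 2572 to 2574. The labels do not say what the runs stand for. The numbers between 2603 and 2627 are missing, and the labels do not say that the mice on both sides belong together. Within the run of 2600 to 2630, a difference between these stretches of numbers cannot be told apart from treatment.

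Promoter windows are shown for members on which the results turn. They come from RefSeq on GRCm38.p6, run 5′ to 3′ on the gene's strand, and cover 250 bases before the start site in lower case and the 50 bases from the start site on in capitals. Grin2d is shown because it had the smallest p between Mn and vehicle brains, and Grik2 because it differed between the animal runs. Gabra4 and Gabrb1 are shown because they are neighbours on opposite strands of chromosome 5, with overlapping 5′ ends in this annotation, while their levels did not move together.
Grin2d, chr7:45866632-45866931, minus strand: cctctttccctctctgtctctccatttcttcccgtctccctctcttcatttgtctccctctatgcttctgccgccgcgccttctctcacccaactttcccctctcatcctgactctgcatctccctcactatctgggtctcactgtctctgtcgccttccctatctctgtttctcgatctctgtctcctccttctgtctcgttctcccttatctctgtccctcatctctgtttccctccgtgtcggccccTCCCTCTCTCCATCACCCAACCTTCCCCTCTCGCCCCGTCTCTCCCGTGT
Grik2, chr10:49788705-49789004, minus strand: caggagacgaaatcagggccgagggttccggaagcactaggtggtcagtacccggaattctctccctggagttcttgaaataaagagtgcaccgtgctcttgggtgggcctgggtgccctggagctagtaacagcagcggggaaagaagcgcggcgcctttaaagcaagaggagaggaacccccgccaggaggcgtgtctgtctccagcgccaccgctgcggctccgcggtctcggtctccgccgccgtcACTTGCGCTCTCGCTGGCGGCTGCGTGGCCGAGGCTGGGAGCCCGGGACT
Gabra4, chr5:71658259-71658558, minus strand: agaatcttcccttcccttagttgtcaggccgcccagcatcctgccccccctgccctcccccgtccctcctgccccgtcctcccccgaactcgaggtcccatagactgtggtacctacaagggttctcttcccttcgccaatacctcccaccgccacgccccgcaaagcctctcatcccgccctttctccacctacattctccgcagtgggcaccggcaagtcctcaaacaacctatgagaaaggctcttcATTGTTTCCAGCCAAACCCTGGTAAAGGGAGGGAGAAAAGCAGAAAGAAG
Gabrb1, chr5:71657671-71657970, plus strand: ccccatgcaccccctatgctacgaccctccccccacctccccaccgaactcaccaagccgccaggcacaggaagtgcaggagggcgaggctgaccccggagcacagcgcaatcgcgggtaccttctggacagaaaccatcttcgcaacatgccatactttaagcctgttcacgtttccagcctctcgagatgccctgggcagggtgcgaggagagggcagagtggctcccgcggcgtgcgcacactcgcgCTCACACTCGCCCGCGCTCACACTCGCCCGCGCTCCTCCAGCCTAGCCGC

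RefSeq windows were found for 20 of the 28 members, 24 windows in all with alternative starts. The median GC content was 60.2% in these windows and 52.7% in the 32851 mouse windows. The GC box GGGCGG, searched on both strands, was in 45.8% of the members' windows, the Gabra4 window among them, and in 35.7% of all windows. The TATA box TATAAA was in 12.5% and 13.6%. These shares describe letters in a window and say nothing of binding.

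In the brain all but a pair of the 28 genes were well expressed. Of these, 26 had a mean of at least 20 CPM over the 15 brain libraries and passed the filter on low counts. Gria1, the AMPA subunit GluA1, was the most abundant at 423 ± 67.0 CPM in Mn and 438 ± 35.6 CPM in vehicle brains (SD, n = 8 and 7). Gabrb1 followed at 373 ± 124 and 407 ± 47.2 CPM and Grin2b at 344 ± 139 and 382 ± 73.9 CPM, and these levels overlapped those of Gria1. Gabre, the epsilon subunit, averaged 2.68 ± 0.590 and 2.98 ± 1.37 CPM, and Gabra6 held 7 reads in all.

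**Figure D1:**
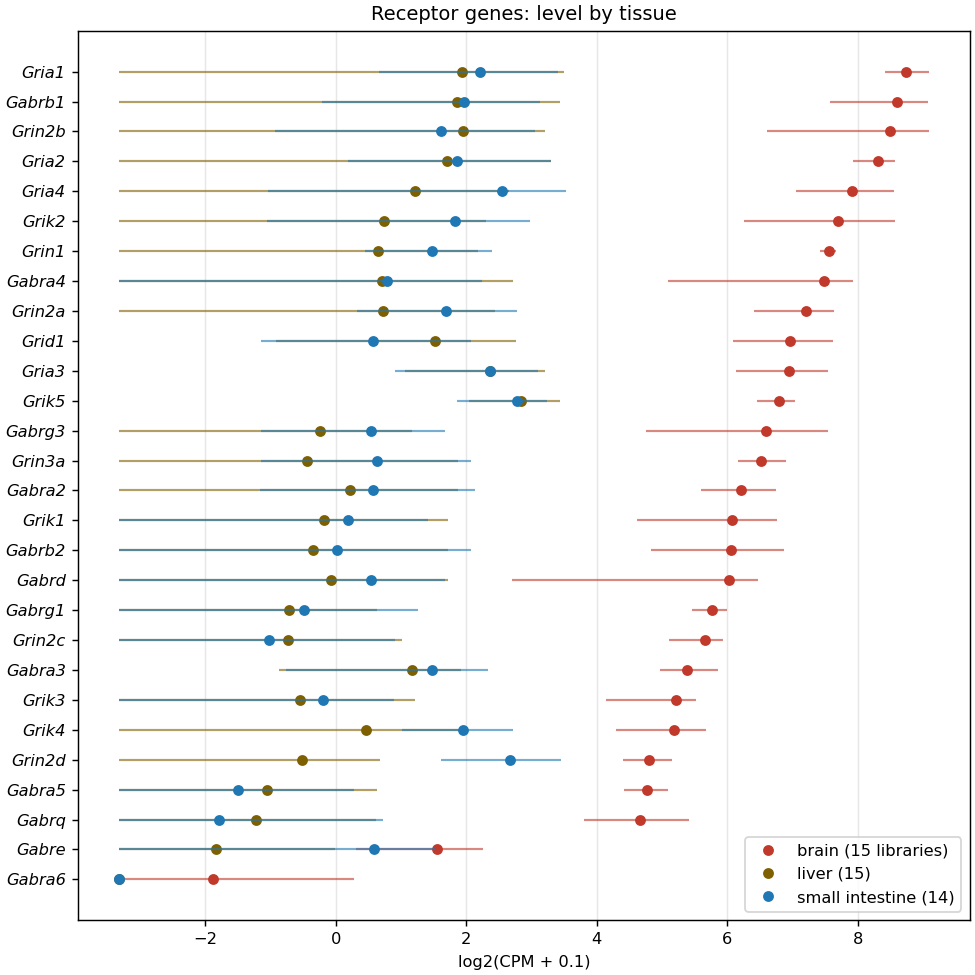
Level of each receptor gene by tissue, as log2(CPM + 0.1), both treatments together. Points are means and lines run from the lowest to the highest library. Brain means exceed those of the other tissues for every gene that was detected there, while the lines of Gabre overlap between brain and small intestine.

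Within each family 1 or a few subunits made up most of the counts. Of the AMPA counts, Gria1 took 39.4% in Mn and 38.5% in vehicle brains and Gria2, the subunit that makes the channel impermeable to calcium, 28.6% and 29.1%. Grin2b and the obligatory subunit Grin1 took 39.0% and 23.6% of the NMDA counts in Mn brains and 42.3% and 21.2% in vehicle brains. Grik2 led the kainate family with 42.8% and 43.7%. Gabra4 led the alpha subunits with 52.7% ± 14.2 in Mn and 56.4% ± 3.26 in vehicle brains.

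Liver and small intestine held few receptor reads, and each of the 26 genes was higher in vehicle brain than in vehicle liver and in vehicle small intestine. Against liver, 83.4% of all genes were called (41.5% higher and 41.9% lower in brain), and against small intestine 84.9% (41.8% higher and 43.2% lower). These genes passed the filter mainly through their brain reads, so the count is a description. Ratios of means were taken over both treatments, with CPM scaled within each tissue. The ratio of brain to liver means was 115 for Gria1, 128 for Grin1, 117 for Gabra4 and 110 for Gabrb1. It was lower for others, such as Gabra2 (69.6), Grik3 (63.2), Grin2d (46.7) and Grid1 (45.2). The lowest ratios were those of Grik5 (15.6), Gabre (15.6), Gabra3 (19.5), Gria3 (24.3) and Grik4 (28.3). The joint fit of vehicle tissues gave smaller differences from liver, at log2 5.91 ± 0.29 for Gria1 and 3.02 ± 0.14 for Grik5. In small intestine Gabre (2.02), Grin2d (4.44) and Grik4 (9.64) had the lowest ratios.

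The liver reads were not spread evenly over the mice. Gria1 was at 6.87, 6.52 and 6.23 CPM in livers of Mn 2601, 2602 and 2603 and at 10.2 and 11.2 CPM in livers of vehicle 2627 and 2630, against 0 to 2.87 CPM in the other 10 livers. Gabrb1 reached 6.23 to 10.7 CPM in the same 5 livers, all from males of that animal run, and at most 2.51 CPM in the others. Whether brain RNA in these libraries accounts for the reads was not tested.

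Grik5, an auxiliary kainate subunit, differed in this respect. It lay at 4.01 to 7.82 CPM in the 8 Mn livers and 5.37 to 10.7 CPM in the 7 vehicle livers, with reads in every library. Grin2d in small intestine had reads in every library too, at 4.28 to 8.36 CPM in Mn and 2.97 to 10.8 CPM in vehicle mice. Reads in every library were not particular to these genes. Gria3, Grid1 and Gabra3 had them in every liver, and many members, such as Gria1, Grik2 and Grin1, in every small intestine library.

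Between Mn and vehicle brains none of the receptor genes passed the test. Counts of 12872 genes were fitted with treatment and sex in edgeR and tested by its quasi-likelihood test, and genes with a Benjamini-Hochberg adjusted p under 0.05 were called. These included 0 of 26 members, against 0.575% of all genes (0.559% higher and 0.0155% lower). At an unadjusted p below 0.05 stood 1 member and 1062 of all genes. DESeq2 called 1 member, Grin2d, and also more of all genes than edgeR, as given in the last section. Of the 26 changes 5 were positive and 21 negative, with a median log2 change of −0.063, against −0.007 over all genes tested. In bulk tissue, fewer cells of a type and less RNA per cell cannot be told apart.

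Grin2d (ENSMUSG00000002771.13), which codes for the GluN2D subunit of slowly deactivating NMDA receptors, came nearest to the threshold. Its level was 25.9 CPM at the lowest, 32.2 at the median and 35.5 at the highest among Mn brains, against 21.1, 22.2 and 29.7 CPM among vehicle brains. The groups overlapped: 6 of 8 Mn libraries lay above every vehicle library. The log2 change was 0.42 ± 0.098 (SE, adjusted p = 0.0756 by edgeR). Grin2d made up 3.91% ± 0.761 of NMDA counts in Mn and 2.65% ± 0.342 in vehicle brains.

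The call of Grin2d depended on the processing, and its direction was the same in every setting run. The adjusted p was 0.0406 with DESeq2, 0.0362 without a filter on low counts and 0.0350 with a filter set from the design matrix. Leaving out vehicle 2573 (0.49, adjusted p = 0.0187) or Mn 2578 (0.47, adjusted p = 0.0421) also made the call, while the 13 other fits without 1 mouse did not (adjusted p up to 0.205, edgeR). Over all settings the edgeR and DESeq2 adjusted p ran from 0.0072 to 1.0. Of the members tested in brain, Grin2d was the closest to its brain level in small intestine, with a mean of 6.29 CPM there and 0.598 CPM in liver. Mn 2575, which held no more RNA of other tissues than vehicle libraries, had the highest value at 35.5 CPM.

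None of the other 25 tested members had an unadjusted p below 0.05. Gabra3, an alpha subunit found in monoaminergic and reticular thalamic neurons, lay at 32.7, 45.0 and 58.2 CPM (lowest, median and highest) in Mn and 31.4, 37.7 and 50.1 CPM in vehicle brains (0.24 ± 0.13, adjusted p = 0.697). Gabrq, the theta subunit, lay at 13.9, 20.1 and 34.4 CPM in Mn and 18.5, 26.5 and 42.4 CPM in vehicle brains (−0.26 ± 0.18, adjusted p = 0.809). Both groups overlapped over most of their range for these genes.

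Gria2 lay at 243, 303 and 381 CPM in Mn and 303, 316 and 381 CPM in vehicle brains (−0.11 ± 0.091, adjusted p = 0.860). Gabra5, the alpha subunit of extrasynaptic receptors in hippocampus, lay at 21.4, 26.8 and 31.5 CPM in Mn and 24.6, 27.8 and 34.1 CPM in vehicle brains (−0.12 ± 0.11, adjusted p = 0.896). No Mn library lay above every vehicle library for Gria2 or Gabra5. Grin2a (−0.18 ± 0.17), Grik3 (−0.16 ± 0.17) and Gria3 (−0.17 ± 0.19) had adjusted p of 0.901, 0.924 and 0.926 by edgeR. Grin2a lay at 84.8, 142 and 198 CPM in Mn and 121, 163 and 200 CPM in vehicle brains, and Grik3 at 17.6, 40.1 and 46.0 CPM in Mn and 34.8, 38.9 and 45.2 CPM in vehicle brains. Gria3 lay at 70.5, 121 and 170 CPM in Mn brains, against a median of 130 and a highest value of 186 CPM in vehicle brains.

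For the most abundant subunits, Gria1 lay at 344, 414 and 547 CPM in Mn and at a lowest of 388 and a median of 442 CPM in vehicle brains, and Gabrb1 at 191, 367 and 541 CPM in Mn and 348, 384 and 460 CPM in vehicle brains. Of the kainate subunits that bind glutamate with high affinity, Grik4 lay at 19.6, 33.0 and 51.1 CPM in Mn and 26.5, 38.7 and 50.2 CPM in vehicle brains and Grik5 at 88.1, 110 and 126 CPM in Mn and 98.9, 110 and 131 CPM in vehicle brains. For these 4 genes the Mn range covered or nearly covered the vehicle range. Grik1, Grin2c, Grin3a, Gabra2, Gabrb2 and Gabrg1 were between 24.4 and 119 CPM in every Mn and between 43.2 and 107 CPM in every vehicle brain, and their changes were all between −0.20 and 0.03.

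For several members the SD was larger among Mn than among vehicle brains, a difference of spread that was not tested. Grik2, for the kainate subunit GluK2, had the same mean in both groups, 208 ± 128 CPM in Mn and 207 ± 47.0 CPM in vehicle brains (0.01 ± 0.33, adjusted p = 0.998). The SD of Gabrg3 was 65.4 CPM in Mn and 26.7 CPM in vehicle brains, and that of Gria4 89.7 and 34.7 CPM. Grin1 was at 189 ± 9.81 and 188 ± 7.18 CPM (0.01 ± 0.051, adjusted p = 0.995).

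The ratio of Grin2a to Grin2b, which is known to increase as the forebrain matures, was −1.22 ± 0.41 on the log2 scale in Mn and −1.26 ± 0.12 in vehicle brains. The ratio of Gria2 to Gria1 was −0.46 ± 0.068 and −0.41 ± 0.088. Both differences were within 1 SD.

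The Mn effect on receptor genes differed between the runs of animal numbers. In the run of 2600 to 2630, 11 of 26 receptor genes rose with Mn and 0 fell, against 7.38% of 12914 genes that rose and 5.06% that fell (12.4% called). In the run of 2572 to 2578, 0 rose and 2 fell, Gabrg3 and Grik2, against 0.452% of 12831 genes that rose and 1.09% that fell (1.54% called). The median log2 change of the 26 was 0.238 and −0.521, against 0.011 and 0.001 over all genes. These fits share no mouse. In the run of 2600 to 2630, Mn and vehicle mice come from separate stretches of numbers. An effect of Mn and a difference between the stretches cannot be told apart there, nor in a comparison of the runs.

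The difference of the Mn effect between the runs was then tested as an interaction term in 1 edgeR fit of the 15 brains, a test added after the values were seen. It called 14 of 26 receptor genes, all higher in the run of 2600 to 2630, against 8.58% of 12872 genes called higher, 4.45% called lower and 13% called in either direction. All 26 estimates were positive, with a median of 0.631, against −0.018 over all genes. The 14 were Gria1, Gria3 and Gria4 of the AMPA family, Grik1, Grik2, Grik3 and Grik4 of the kainate family, Grin2a and Grin2b, Grid1, and Gabra2, Gabrb1, Gabrb2 and Gabrg3.

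**Figure D2:**
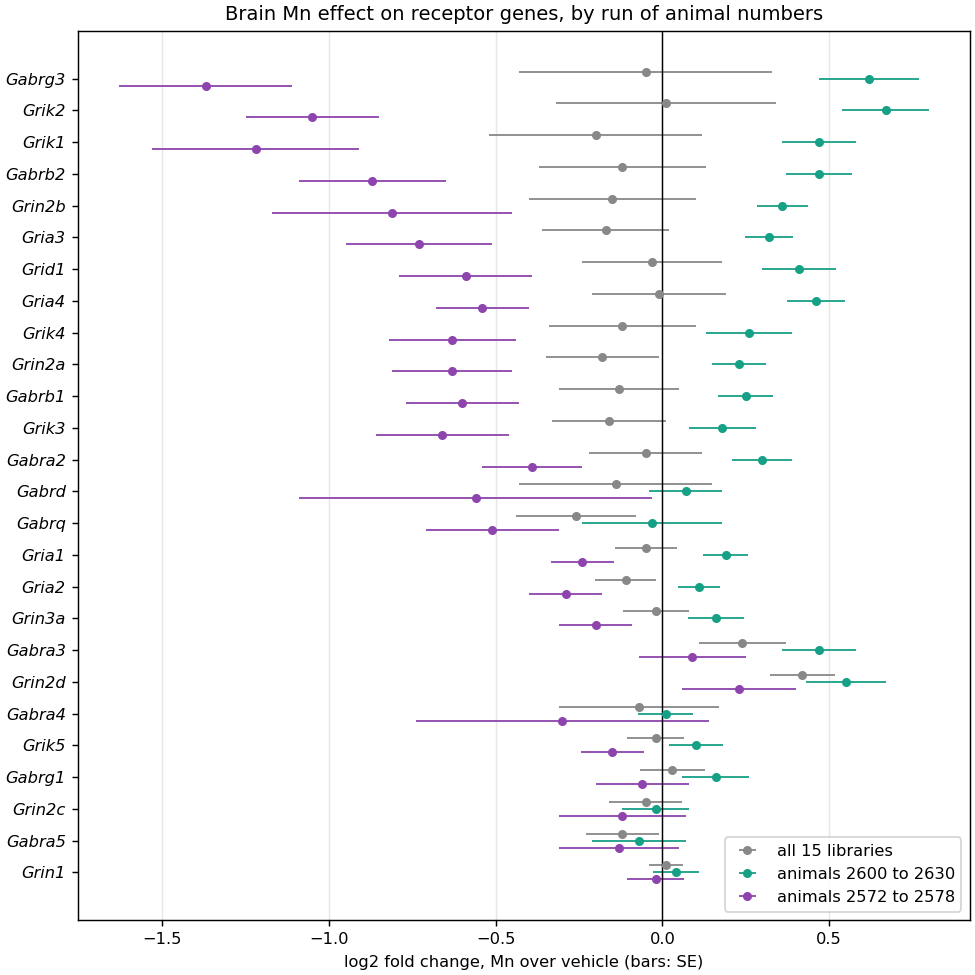
Log2 fold change of Mn over vehicle in brain for the 26 tested receptor genes, in all 15 libraries and in each run of animal numbers, with the standard error as bars and genes ordered by the difference between runs. The run of 2600 to 2630 lies right of 0 for 23 of 26 genes and the run of 2572 to 2578 left of 0 for 24 of 26.

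Among AMPA subunits, Gria4, a subunit with fast kinetics, showed the split in every library. It was at 375, 328, 286 and 288 CPM in Mn 2600, 2601, 2602 and 2603, against 201, 260, 244 and 264 CPM in vehicle 2627, 2628, 2629 and 2630. In the other run it was at 182, 133, 160 and 170 CPM in Mn 2575, 2576, 2577 and 2578, against 196, 292 and 233 CPM in vehicle 2572, 2573 and 2574. Mn thus lay above every vehicle library in the first run given and below every one in the second.

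The change of Gria4 was 0.46 ± 0.087 (adjusted p = 0.00278) and −0.54 ± 0.14 (adjusted p = 0.0918), a difference of 0.99 ± 0.19 (adjusted p = 0.00407, edgeR). Gria3 differed by 1.05 ± 0.23 (adjusted p = 0.00736) and Gria1 by 0.42 ± 0.13 (adjusted p = 0.0425), while Gria2 did not pass (0.39 ± 0.14, adjusted p = 0.0662).

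The kainate family held some of the largest differences. Grik2 (ENSMUSG00000056073.17) was at 381, 363, 263 and 287 CPM in Mn 2600 to 2603, against 156, 220, 220 and 256 CPM in vehicle 2627 to 2630. It was at 105, 94.8, 98.8 and 76.1 CPM in Mn 2575 to 2578, against 145, 266 and 184 CPM in vehicle 2572 to 2574. The groups did not overlap in either run, and the means of the 2 Mn sets, 323 ± 57.4 and 93.8 ± 12.5 CPM, differed 3.45 times.

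The vehicle sets of Grik2 averaged 213 ± 41.7 and 198 ± 61.9 CPM, a ratio of 1.07. Grik2 changed by 0.67 ± 0.13 with Mn in the run of 2600 to 2630 (adjusted p = 0.00286) and by −1.05 ± 0.20 in the other (adjusted p = 0.0425), a difference of 1.72 ± 0.27 (adjusted p = 0.00124, edgeR). Grik1 differed by 1.70 ± 0.34 (adjusted p = 0.00478), Grik4 by 0.88 ± 0.24 (adjusted p = 0.0238) and Grik3 by 0.83 ± 0.21 (adjusted p = 0.0158). Grik5, which forms no channel alone, did not pass (0.24 ± 0.12, adjusted p = 0.206).

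NMDA subunits divided. Grin2b was at 547, 420, 421 and 425 CPM in Mn 2600 to 2603, against 323, 381, 370 and 399 CPM in vehicle 2627 to 2630, and at 322, 232, 289 and 97.9 CPM in Mn 2575 to 2578, against 316, 535 and 348 CPM in vehicle 2572 to 2574. Grin2b differed between the runs by 1.16 ± 0.36 (adjusted p = 0.0440) and Grin2a by 0.85 ± 0.21 (adjusted p = 0.0132). Grin1, the subunit every NMDA receptor needs, gave 0.04 ± 0.10 (adjusted p = 0.822), and Grin2c (0.09 ± 0.21), Grin2d (0.32 ± 0.19) and Grin3a (0.34 ± 0.13) did not pass either (adjusted p = 0.820, 0.300 and 0.103). Grin2d was positive in both runs, at 0.55 ± 0.12 (adjusted p = 0.00720) and 0.23 ± 0.17 (adjusted p = 0.524).

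Grid1, a delta subunit that acts as a synaptic adhesion partner more than as a channel, was at 198, 175, 132 and 155 CPM in Mn 2600 to 2603, against 119, 124, 121 and 149 CPM in vehicle 2627 to 2630. In the other run it was at 108, 67.9, 82.8 and 68.6 CPM in Mn 2575 to 2578, against 98.3, 152 and 121 CPM in vehicle 2572 to 2574. The groups overlapped in both runs, and the difference between them was 0.99 ± 0.24 (adjusted p = 0.0113, edgeR).

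Of the GABA-A subunits, Gabrg3 (ENSMUSG00000055026.14), a gamma subunit of modest expression, had the largest difference of all 26 members. It was at 187, 165, 121 and 137 CPM in Mn 2600 to 2603, against 75.0, 86.9, 122 and 133 CPM in vehicle 2627 to 2630. In the other run it was at 51.3, 31.8, 35.2 and 27 CPM in Mn 2575 to 2578, against 77.4, 125 and 71.7 CPM in vehicle 2572 to 2574. The groups overlapped in the run of 2600 to 2630 and not in the other.

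The change of Gabrg3 was 0.62 ± 0.15 (adjusted p = 0.0126) in the run of 2600 to 2630 and −1.37 ± 0.26 (adjusted p = 0.0399) in the other, a difference of 1.98 ± 0.32 (adjusted p = 0.00145, edgeR). The beta subunits followed, with Gabrb2 at 1.34 ± 0.27 (adjusted p = 0.00438) and Gabrb1 at 0.84 ± 0.19 (adjusted p = 0.00882), as did Gabra2 at 0.68 ± 0.20 (adjusted p = 0.0359). Gabrg1 (0.20 ± 0.18), Gabra3 (0.33 ± 0.23), Gabra4 (0.28 ± 0.46), Gabra5 (0.04 ± 0.22), Gabrd (0.58 ± 0.54) and Gabrq (0.47 ± 0.34) did not pass, with adjusted p of 0.390 to 0.933.

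**Figure D3:**
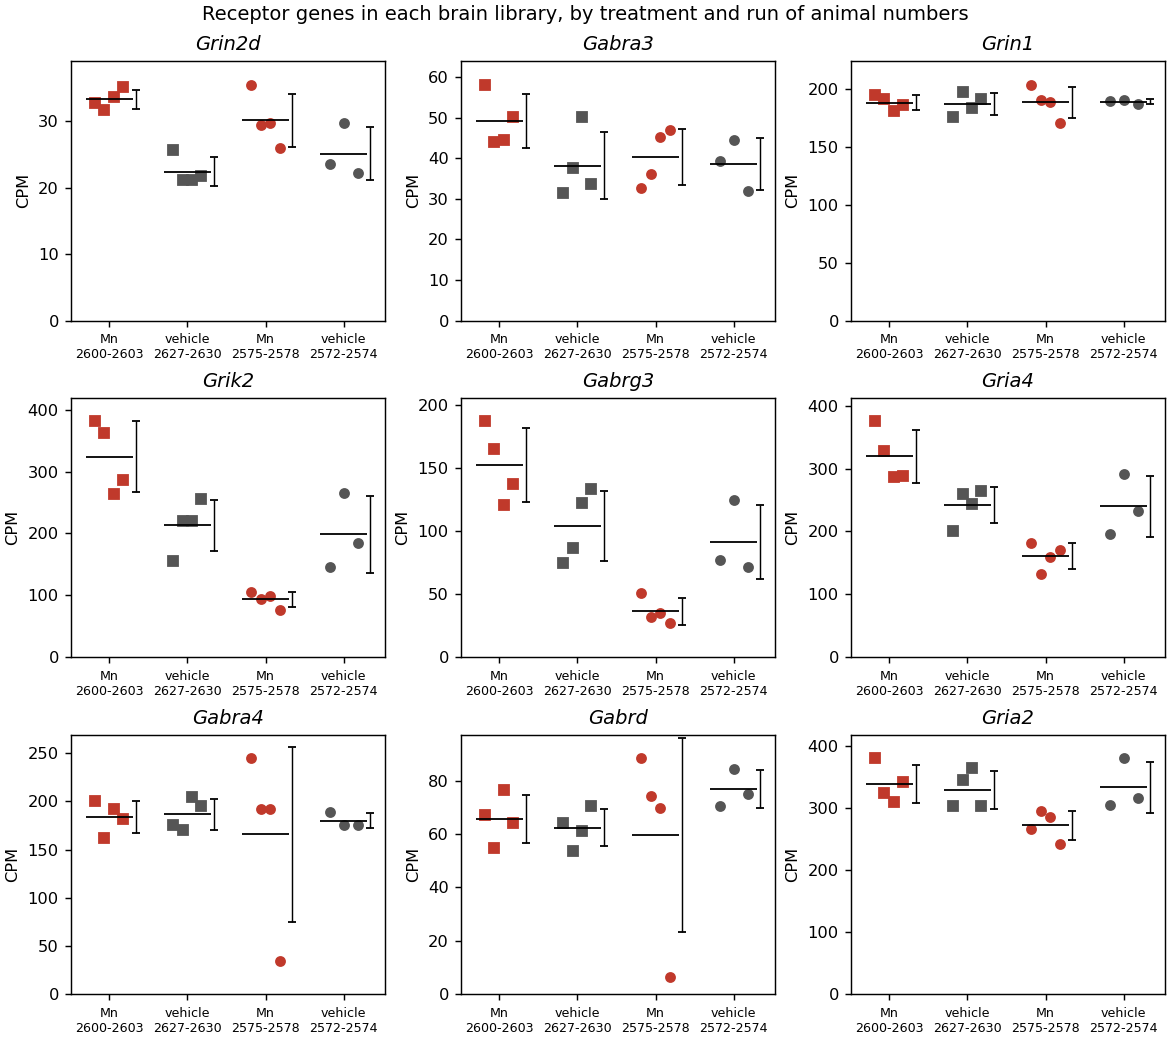
CPM of 9 receptor genes in each brain library (points), with the mean of each set (line) and its SD (bar), by treatment and run of animal numbers. Grik2, Gabrg3 and Gria4 lie high in Mn 2600 to 2603 and low in Mn 2575 to 2578, Grin1 lies between 171 and 204 CPM throughout, and Gabra4 and Gabrd each have 1 low Mn library, 2578.

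Libraries that do not overlap showed the same division without a model. In the run of 2600 to 2630 every Mn library lay above every vehicle library for 5 members, Gria3, Gria4, Grik2, Grin2b and Grin2d (6.72% of all genes tested), and below for 0 (7.95%). In the run of 2572 to 2578 every Mn library lay below for 9 members (9.33%) and above for 0 (6.48%). Mn 2600 to 2603 all lay above Mn 2575 to 2578 for 17 of 26 members, against 14.7% of all genes. Both patterns together held for 2 members, Gria4 and Grik2, against 2.08%.

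The run difference of 7 members, Gria3, Gria4, Grik1, Grik2, Gabrb1, Gabrb2 and Gabrg3, kept its call whichever mouse was left out and in the 4 other settings run. These settings were DESeq2, no sex covariate, and the shares of liver and small intestine RNA as covariates. The remaining setting took library sizes from genes no higher in those tissues than in brain. The count of called members was 8 without Mn 2600 and 9 without vehicle 2573, and 10 to 15 in the 13 other fits without 1 mouse. The count over all genes moved as well, from 1678 in the main fit to 773 without Mn 2600. It also fell without vehicle 2573, and reached 1958 at the highest. Gria1 and Grin2b each lost the call in 11 of 15 such fits, Gabra2 in 9 and Grik4 in 4. Grid1, Grik3 and Grin2a lost it in 1 each (Grid1 and Grin2a without Mn 2600, adjusted p = 0.0608 and 0.0645, and Grik3 without vehicle 2573, adjusted p = 0.0516, all by edgeR).

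The receptor genes that differed between runs span more of the genome than those that did not. Gene spans, taken from a GRCm38 annotation, ran from 13.1 kb for Gabrd to 763 kb for Grid1, and Spearman's rho between span and run difference was 0.76 over the 26 members and 0.51 over 12859 genes. This is given as a description, without a p, since all genes share the 15 libraries. Grik2 spans 694 kb and Gabrg3 671 kb, against 28 kb for Grin1, 18.1 kb for Grin2c and 46.5 kb for Grin2d.

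**Figure D4:**
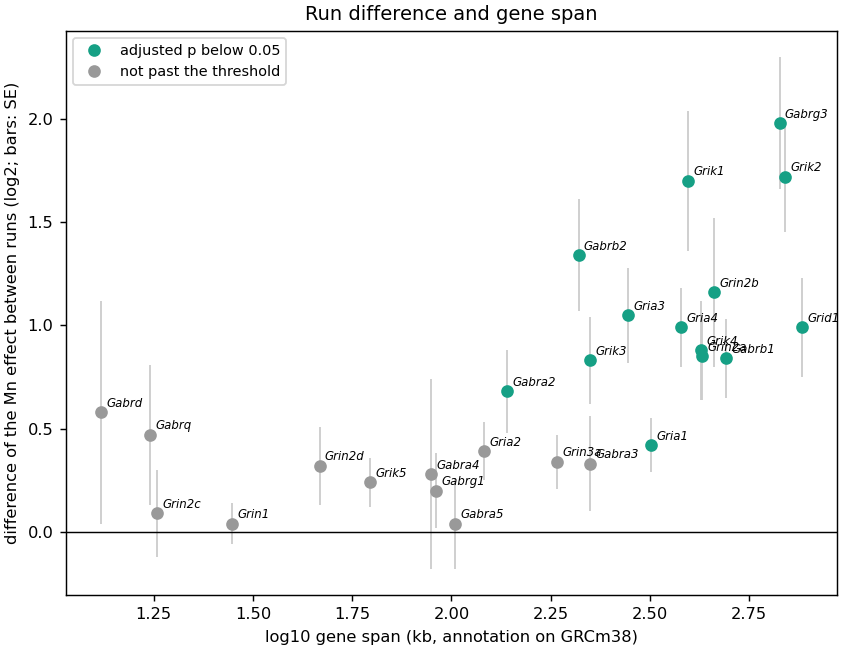
Difference of the Mn effect between the animal runs (log2, with SE) against gene span (log10 of kb, GRCm38 annotation) for the 26 tested receptor genes. The 14 called genes (green) lie toward the right, and no gene under 100 kb was called.

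Some measures outside the receptor genes are given beside the run difference. Reads that fell in no annotated feature made up 3.90% to 4.14% of records in Mn 2600 to 2603, against 3.49% to 3.88% in vehicle 2627 to 2630, and 2.96% to 3.31% in Mn 2575 to 2578, against 3.48% to 4.10% in vehicle 2572 to 2574. Of 8 RNAs known to stay in the nucleus, a list chosen after its values were seen, 6 were called higher by the run term, against 8.58% of all genes, a count that is a description only: Malat1 (0.78), Meg3 (1.09), Snhg11 (0.90), Rian (1.26), Mirg (1.11) and Kcnq1ot1 (2.22). Neat1 (0.12) and Miat (0.87, adjusted p = 0.103) were not. Kcnq1ot1 averaged 207 ± 34.7 CPM in Mn 2600 to 2603 and 142 ± 34.4 CPM in vehicle 2627 to 2630, and 44.2 ± 17.5 CPM in Mn 2575 to 2578 and 138 ± 42.7 CPM in vehicle 2572 to 2574.

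Grik2 followed the share of reads without a feature across the 15 brains, with Pearson's r = 0.93 and Spearman's rho = 0.97 (p = 2e-05, the smallest the permutations can give, and adjusted p = 3e-05 for each over 3 relations, permutation test, two-sided). Without Mn 2576 and 2577, the libraries farthest from the median share, r was 0.94. Within Mn libraries r was 0.96 and within vehicle libraries 0.93 (adjusted p = 0.00417 and 0.00714, exact permutation tests, n = 8 and 7). Within the runs of 2600 to 2630 and 2572 to 2578 it was 0.94 and 0.95. Vehicle 2573, with a share of 4.10%, had the highest Grik2 of the vehicle brains at 266 CPM, and vehicle 2572, with 3.48%, the lowest at 145 CPM.

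Gabrg3 gave r = 0.92 and rho = 0.91 over the 15 brains (adjusted p = 3e-05 each, permutation test), and within vehicle libraries r = 0.70 (adjusted p = 0.151, exact permutation test, n = 7). For Grin2d r was 0.14 and rho 0.21 over the 15 brains (adjusted p = 0.625 and 0.456, permutation test). Its r was 0.69 within the run of 2600 to 2630 (adjusted p = 0.0692, exact permutation test, n = 8) and −0.23 within the other. Within Mn libraries the r of Grin2d was 0.56 and within vehicle libraries 0.38. These relations were chosen after the values were seen. The part of the unannotated reads, of nuclear RNA or of gene span in the run difference was not tested.

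RNA of other tissues was present in libraries with high and with low receptor levels. Mn 2575, with no more liver or intestine RNA than vehicle, was among the low libraries, with Grik2 at 105 CPM, and Mn 2576, 2577 and 2578, with 6.02% of small intestine and 3.88% and 4.03% of liver RNA, were low as well. Mn 2600 to 2603 were high with 3.07% of small intestine RNA in 2600 and 2.36% to 2.55% of liver RNA in the others. The run term was also fitted with the shares of both tissues as covariates, and with library sizes from genes no higher in those tissues than in brain. Gria3, Gria4, Grik1, Grik2, Gabrb1, Gabrb2 and Gabrg3 kept their call in both fits. What accounts for the run difference was not tested.

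The library of Mn 2578 had a receptor profile of its own. It lay below all 14 other brain libraries for 19 of 26 receptor genes, against 14.6% of all genes tested. Mn 2575, 2576 and 2577, of the same run, were low for many of these genes as well. For some the gap was small, as for Grik1 (24.4 CPM, lowest other 24.6 CPM) and Gria3 (70.5 CPM, lowest other 73.2 CPM). Gabrd (ENSMUSG00000029054.9), the delta subunit, was at 6.38 CPM (17 reads), against 54.8 to 88.4 CPM in the other Mn and 53.7 to 84.5 CPM in vehicle libraries, where the median of the 14 was 11 times as high. Gabra4 (ENSMUSG00000029211.12), the alpha subunit that partners with it in thalamus, was at 34.1 CPM, against 162 to 245 CPM in the other Mn and 170 to 205 CPM in vehicle libraries. The SD of Gabra4 was 61.5 CPM in Mn and 12.8 CPM in vehicle brains with Mn 2578 included.

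Grin2b in Mn 2578 was at 97.9 CPM, against 232 to 547 CPM in the 14 others. Grin1 fell little below the rest there, at 171 CPM against 176 to 204 CPM, and Gabra3, at 46.9 CPM, and Gabra5, at 31.5 CPM, lay within the range of the others. Grin1 thus made up 35.2% of NMDA counts in Mn 2578 and 17.1% to 28.6% in the other Mn libraries, and Gabra4 21.2% of alpha subunit counts against 49.7% to 68.3%.

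**Figure D5:**
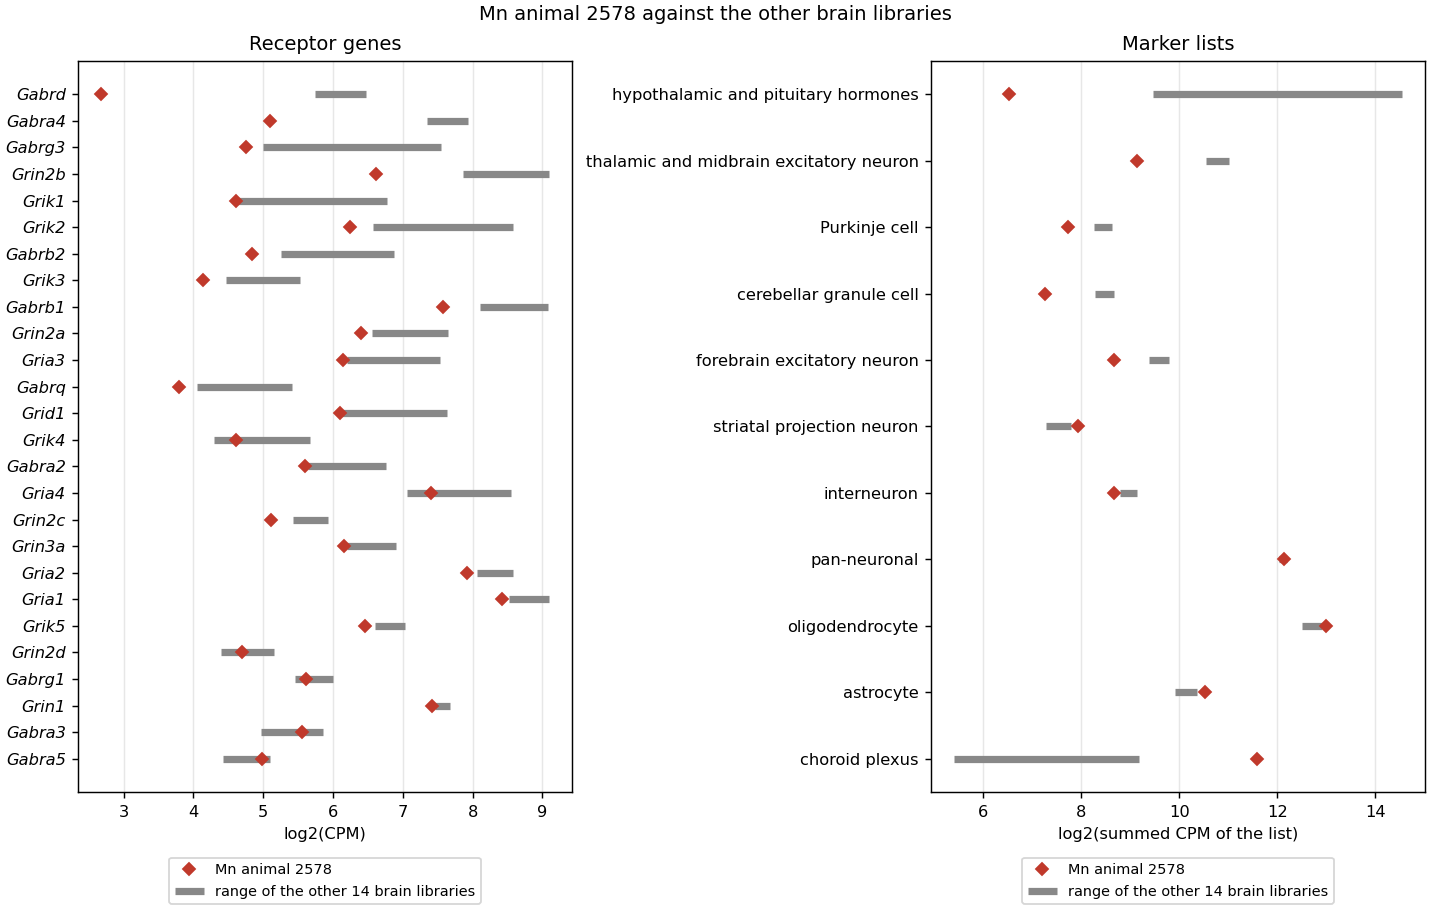
Level of the 26 tested receptor genes (left, log2 CPM) and summed level of marker lists (right, log2 of summed CPM) in Mn mouse 2578 (diamonds) against the range of the other 14 brain libraries (bars). Gabrd and Gabra4 lie farthest below the bars, the thalamic and midbrain markers lie below theirs, and the choroid plexus markers lie above.

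Marker lists moved in the same library. The 5 thalamic and midbrain excitatory markers summed to 562 CPM in Mn 2578, against 1490 to 2080 CPM in the 14 others, and the 7 forebrain excitatory markers to 407 CPM against 667 to 885 CPM. The forebrain markers did not move together: Camk2a was at 122 CPM in Mn 2578 and Cck at 76.9 CPM, both below the 14 others, while Lamp5, at 35.6 CPM, was above them and Nrgn, at 163 CPM, was within their range. Choroid plexus markers summed to 3070 CPM against 42.3 to 580 CPM, of which Ttr, also a liver gene, gave 2960 CPM. The rest of that list, Folr1 (25.1 CPM), Kl (37.1 CPM), Clic6 (19.5 CPM) and Kcnj13 (32.6 CPM), also lay above the 14 others. Hypothalamic and pituitary hormone genes summed to 92.6 CPM against 709 to 23900 CPM. Striatal projection neuron markers were at 243 CPM against 156 to 220 CPM, and pan-neuronal markers, at 4490 CPM, lay within the range of the others. Whether a different makeup of the tissue accounts for the receptor levels of Mn 2578 was not tested.

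Gabrd rose and fell with the summed cerebellar granule cell list across the 15 brains (r = 0.87, rho = 0.62, adjusted p = 0.0139 and 0.0523 over 3 relations, permutation test), but the relation rests on few libraries. Without Mn 2577 and 2578 r was 0.59 (adjusted p = 0.0593, permutation test), and within vehicle libraries it was −0.01 (exact permutation test, n = 7, adjusted p = 1.0). Grin2c, a subunit of cerebellar granule cells and thalamus, gave r = 0.55, and 0.09 without those libraries. Gabra6 gave r = −0.33 with 10 libraries at 0. Most of the summed level of that list came from Zic1, which was at 81.8 CPM in Mn 2578 and 203 to 289 CPM in the 14 others.

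Gabra4 and Gabrb1, whose windows are shown above, did not keep a fixed ratio. The log2 ratio of Gabra4 to Gabrb1 was −1.44, −1.56, −1.15 and −1.40 in Mn 2600 to 2603 and −0.33, −0.52, −0.57 and −2.49 in Mn 2575 to 2578. It lay between −1.40 and −0.88 in the 7 vehicle brains. Gabrb1 spans 491 kb and was called by the run term, and Gabra4 spans 88.6 kb and was not.

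No difference of the Mn effect between the sexes was called for a receptor gene. The sex by treatment term, males minus females, called 0 of 26 members, against 0.0622% of 12872 genes, and 0 members stood at an unadjusted p below 0.05. DESeq2 called 76 genes for that term. The estimates ran from −0.73 to 0.35 with 6 positive and 20 negative, on 3 female Mn mice, 5 male Mn mice, 3 female vehicle mice and 4 male vehicle mice.

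In liver and small intestine few members could be tested. In liver, 0 of 2 were called, against 1.17% of 10536 genes: Gria3 fell short of the threshold at −0.61 ± 0.20 (adjusted p = 0.116) and Grik5 at −0.42 ± 0.19 (adjusted p = 0.255, edgeR). In small intestine, 0 of 5 were called, against 0.459% of 11770 genes. Changes there were 0.19 ± 0.30 for Gria4, −0.04 ± 0.29 for Grik4, −0.05 ± 0.23 for Grik5, −0.08 ± 0.31 for Gria3 and 0.13 ± 0.27 for Grin2d, each smaller than its standard error. In both tissues Mn and vehicle libraries carry sequencing sample numbers in separate blocks, so treatment and a batch along these numbers cannot be told apart there. The 7 vehicle brains also carry a block of consecutive numbers that holds no Mn brain, but Mn brains lie on both sides of it. In brain, a batch limited to that block cannot be told apart from treatment, and a trend along the numbers was not tested.

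No other gene of glutamate and GABA synapses was called between Mn and vehicle brains either. Of 61 such genes on 4 lists 59 were tested, and 0 were called, against 0.575% of all genes. Their changes were positive for 31 and negative for 28, with a median of 0.005. Over all genes tested 6170 changes were positive and 6702 negative, with a median of −0.007. Of the transporters and enzymes 15 of 17 were positive, with a median of 0.067, and of the scaffolds 5 of 17, with a median of −0.042.

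Homer3, a scaffold that links metabotropic receptors to calcium stores, was at 14.4 ± 2.94 CPM in Mn and 9.98 ± 1.70 CPM in vehicle brains (0.52 ± 0.15, adjusted p = 0.196). Nlgn2, an adhesion protein of inhibitory synapses, was at 122 ± 13.1 and 106 ± 3.67 CPM (0.19 ± 0.062, adjusted p = 0.300). Gad1, which makes GABA from glutamate, was at 163 ± 22.1 and 142 ± 7.98 CPM (0.20 ± 0.082, adjusted p = 0.484).

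The run term was also read for the other synapse genes, where the shares over all genes were 8.58% higher and 4.45% lower. It called 4 of 9 metabotropic and GABA-B receptor genes higher, 7 of 17 scaffold genes higher, 1 of 16 auxiliary subunits higher and 1 lower, and 0 of 17 transporters and enzymes higher and 1 lower. Grip1, which binds the AMPA subunits Gria2 and Gria3, differed by 1.99 ± 0.27 (adjusted p = 0.000922), Grm7 by 1.97 ± 0.37 (adjusted p = 0.00299) and Dlg2, the scaffold PSD-93, by 1.90 ± 0.35 (adjusted p = 0.00283). Nlgn1, the adhesion protein of excitatory synapses, differed by 1.82 ± 0.29 (adjusted p = 0.00133) and Gphn, the gephyrin scaffold of GABA-A receptors, by 0.78 ± 0.19 (adjusted p = 0.0113). The called lower genes were Clptm1 (−0.33 ± 0.10, adjusted p = 0.0469), which retains GABA-A receptors in the endoplasmic reticulum, and Glul, glutamine synthetase of astrocytes (−0.53 ± 0.12, adjusted p = 0.0109). Grip1 spans 633 kb, Dlg2 1970 kb and Glul 9.78 kb.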

How the data were processed

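The values analysed were raw read counts per gene, 1 table per library, as the authors deposited them. Libraries were made by 3′ TagSeq, per the labels' protocols. The submitters' processing notes name STAR 2.7.10b and HTSeq 0.2.0, and besides them R 4.2.2, FastQC 0.12.0 and DESeq2 1.12.3, with build GRCm39. Whether molecular identifiers or strand were used was not given in the sources used here. Counts may hold duplicate reads, and reads of overlapping genes on opposite strands cannot be told apart. Each table held 55416 genes, 92 spike-in entries and 5 summary entries, and the last 2 kinds entered neither library sizes nor tests. Multi-mapped reads (23.8% to 34.8% of records) and reads without a feature (1.84% to 4.14%) were not counted to genes by the authors. Totals per library were 1796385 to 3798810 reads, at which 10 reads in a brain library of middling depth correspond to 3.78 CPM. Symbols came from a GRCm38 annotation (52083 of 55416 identifiers matched). No libraries of a group were duplicates (lowest chi-square per gene 1.47).

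Tests used edgeR 4.0.16 in R 4.3.3, two-sided: glmQLFit and glmQLFTest on counts, TMM scaling (factors 0.980 to 1.02 in brain), filterByExpr by treatment group (at least 10 reads in enough libraries and 15 in all), a term for sex, adjustment over all genes tested and a threshold of 0.05. DESeq2 1.42.0 was an alternative. Printed values are mean CPM ± SD or log2 change ± SE. The scripts were tested on simulated data. The share of liver or small intestine RNA was estimated from genes of at least 100 CPM there that were nearly absent from the cleanest brain library. Members, lists and tests were chosen with earlier results of these data known, and the run term, the nuclear RNA list and the relations to reads without a feature after their values were seen. Named were the 8 members with the smallest p, the highest member of each list, members that passed the filter in another tissue, and the 4 other synapse genes with the smallest p, of which 1 is not reported here; members and genes named beyond these were chosen after their values were seen. The tissues of a mouse share its number, so vehicle tissues were also compared with the animal as a block. Deviations of brain and liver from their group means correlated at −0.10 to 0.20 over the 7 vehicle mice, and those of brain and small intestine at −0.07 to 0.26.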

Additional observations from a re-analysis of the deposited data

Results flagged for a closer look

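A library far from the rest of its group was found in 6 of the 56 gene and group pairs looked at, where chance alone gives about 1 in 20. In Mn brains, mouse 2578 was low for Gabra4 (34.1 CPM, others 162 to 245 CPM) and Gabrd (6.38 CPM, others 54.8 to 88.4 CPM). In vehicle brains, mouse 2573 was high for Gria3 (186 CPM, others at most 134 CPM) and Grin2b (535 CPM, others 316 to 399 CPM), and it also had the highest share of reads without a feature among vehicle brains, 4.10%. For Gabra6, Mn 2601 (1.12 CPM) and vehicle 2627 (0.379 CPM) were high only in that the other libraries held 0 or 1 read.

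The Mn effect differed between the animal runs, 2600 to 2630 minus 2572 to 2578, by the edgeR interaction term for 14 receptor genes. In log2 units the differences were 0.42 for Gria1, 1.05 for Gria3 and 0.99 for Gria4, 1.70 for Grik1, 1.72 for Grik2, 0.83 for Grik3 and 0.88 for Grik4. They were 0.85 for Grin2a, 1.16 for Grin2b and 0.99 for Grid1, and 0.68 for Gabra2, 0.84 for Gabrb1, 1.34 for Gabrb2 and 1.98 for Gabrg3. In the Mn sets alone, all 4 libraries of 2600 to 2603 lay above all 4 of 2575 to 2578 for each of these genes. The same held for 17 of 26 members and for 14.7% of all genes tested. The 14 genes were called from these same libraries, so this is a description and adds no support.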

How the results depend on the processing

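The count of brain genes called for Mn against vehicle, 74, was 406 with DESeq2 and 542 without a low-count filter. It was 240 with the filter set from the design matrix (added after seeing the data) and 0 with the shares of other tissues as covariates. It was 1607 in animals 2600 to 2630, 198 in animals 2572 to 2578, 329 in males and 0 in females. When 1 mouse was left out it ran from 30 to 124, with 30 to 35 without Mn 2576, 2577, 2578, 2601, 2602 or 2603, 116 without vehicle 2572 and 124 without vehicle 2628. Receptor genes called, 0, became 1 with DESeq2, without a filter and with the design filter, 11 in animals 2600 to 2630 and 2 in animals 2572 to 2578 (0 to 1 without 1 mouse). Other synapse genes called, 0, became 1 with DESeq2, RLE factors, no filter, library sizes from genes not higher elsewhere, the design filter or the run as a covariate, 15 in animals 2600 to 2630 and 2 in animals 2572 to 2578 (0 to 1 without 1 mouse). For the run term, without 1 mouse, genes called ran from 773 (without Mn 2600) to 1958, receptor genes from 8 to 15 and other synapse genes from 8 (without Mn 2600; 9 without vehicle 2627) to 17. It called 830 genes without vehicle 2573 and 945 without vehicle 2627. DESeq2 called 76 genes for the sex term, against 8. In liver, 123 became 394 with DESeq2 and 519 without a filter, and in small intestine 54 became 137 and 521.

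Directions reversed with the shares as covariates for Grin2a (0.40), Grik3 (0.09), Gria3 (0.50) and, in the run term, Grin2c (−0.07). Without the 7 Mn libraries that held RNA of other tissues, which leaves Mn 2575 as the only Mn brain, the direction reversed for Gabra3 (−0.38). In animals 2600 to 2630 directions reversed for Gria2 (0.11), Grin2a (0.23), Grik3 (0.18) and Gria3 (0.32). Without 1 mouse the run term reversed for Grin1 (−0.01 to 0.08), Grin2c (−0.09 to 0.20), Gabra4 (−0.18 to 0.58) and Gabra5 (−0.10 to 0.18). The difference of log2 Grin2a over Grin2b, 0.05 for Mn minus vehicle, was −0.10 without the 7 Mn libraries, and ran from −0.10 (without Mn 2578) to 0.08. For the granule list without the 2 farthest libraries, Gabrd gave r = 0.59 (adjusted p = 0.0593) and Gabra6 r = −0.50 (adjusted p = 0.0489, permutation tests). The causes were not tested. With the animal as a replicate block, vehicle brain differed from vehicle liver for 11688 genes (11716 without) and from small intestine for 11925 (11928), with 26 receptor genes called in each, so that it changed no call of theirs. With 8 and 7 brains, changes of the size of the errors printed cannot be told apart from 0, and Gabra6 and Gabre had too few reads to test.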
